A study of Mus musculus with 4 samples.

Results

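Ms4a6c-Csf1r cells are the cells of these pro-T cultures that carried mRNA of several monocyte genes at once. A barcode was counted as such a cell when it had at least 500 genes, under 10% mitochondrial molecules, at least 2 UMIs of at least 3 of the 5 genes Csf1r, Ms4a6c, Lyz2, Ly6c2 and Cybb, and under 5 UMIs of each of the granulocyte genes Elane, S100a8 and Ngp. A UMI (unique molecular identifier) is a random tag that lets each captured mRNA molecule be counted once. The rule was met by 1137 of the 19546 kept cells. Experiment 1 held 305 of 9332 (3.27%, 2.92% to 3.65%) and experiment 2 held 832 of 10214 (8.15%, 7.62% to 8.69%). Every interval here is an exact 95% interval and covers counting error only.

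The working label of these cells is monocyte-like, but 1 of its 5 markers was rare in them. Ly6c2, which encodes the Ly6C antigen of classical monocytes, reached 2 UMIs in 19 of 305 cells of experiment 1 (6.23%) and in 65 of 832 cells of experiment 2 (7.81%). In all other kept cells the shares were 1.13% and 4.42%. The rule left out cells with a granulocyte gene, whose Ly6c2 levels are given below. The low count of Ly6c2 is thus set in part by that choice. Ms4a6c, a membrane protein gene of myeloid cells, reached 2 UMIs in 305 of 305 and 821 of 832 cells. The cells are therefore named by their leading genes and are assigned to no cell type.

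The libraries came from bone marrow progenitors of 8- to 10-week-old B6 mice carrying a Bcl2 transgene, a survival gene that all groups shared, cultured with 10 ng/ml IL-7 and 10 ng/ml Flt3-ligand on OP9-Dll1, a bone marrow stromal line that displays a Notch ligand. For overexpression, MSCV-Runx1-mCherry or its empty counterpart was added on day 2, and Lineage-, mCherry+, CD45+ cells were sorted on day 4 or day 6. For double knockout, Cas9;Bcl2 transgenic cells received E42 guide vectors against Runx1 (hNGFR) and Runx3 (mTurquoise), or guides to luciferase as a control, on day 2, and Lineage-, mTurquoise+, hNGFR+, CD45+ cells were sorted on day 5 or day 8. Experiment 1 covered days 4 to 5 and experiment 2 days 4 to 8, each as 1 mRNA library and 1 hashtag library made with 10x Chromium v3 chemistry. The labels describe the cells as Kit-high Phase1 pro-T cells, a stage before commitment to the T lineage. The hashtag columns give no condition, so no hashtag is tied here to a vector, a guide or a harvest day.

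Monocytes arise from bone marrow progenitors that express the transcription factors PU.1 (Spi1) and Irf8, and their survival depends on the M-CSF receptor, Csf1r. Notch ligands, such as the Dll1 of the stromal line, drive the same early progenitors toward the T lineage. Until Bcl11b is expressed, early pro-T cells keep the potential to form myeloid and dendritic cells.

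Hashtag oligos are DNA barcodes on antibodies that mark the cells of 1 culture before cultures are pooled. Their sequences are given because they alone separate the cultures within each library. The same 8 barcodes were used in both experiments, each 15 bases long, and any pair of them differed at 7 or more bases. They are numbered here in the order of the deposited columns and written 5′ to 3′ as deposited.
hashtag 1: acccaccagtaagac
hashtag 2: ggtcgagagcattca
hashtag 3: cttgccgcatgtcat
hashtag 4: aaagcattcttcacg
hashtag 5: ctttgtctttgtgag
hashtag 6: tatgctgccacggta
hashtag 7: gagtctgccagtatc
hashtag 8: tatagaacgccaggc

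The depth of the libraries bears on a rule that counts UMIs. Ms4a6c-Csf1r cells had a median of 34818 UMIs and 5374 genes in experiment 1, against 25009 UMIs and 4760 genes in the other cells. In experiment 2 the medians were 36133 UMIs and 5155.5 genes, against 26055.5 UMIs and 4537.5 genes. Mitochondrial shares were alike, with medians of 4.22% and 4.61% in experiment 1 and of 3.53% and 3.77% in experiment 2. More than 1 hashtag was called in 55 of 305 Ms4a6c-Csf1r cells (18%, 13.9% to 22.8%) and in 7.08% of other cells of experiment 1. In experiment 2 it was called in 239 of 832 (28.7%, 25.7% to 31.9%) and in 19.8% of other cells. Values for cells with 1 positive hashtag, called single cells below, are therefore given where they differ. The libraries shared 39 barcode sequences, 34 of them kept in both, and none of the Ms4a6c-Csf1r cells had a barcode in common between the experiments.

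The 5 genes that chose the cells are described without a test. Csf1r, the M-CSF receptor, had at least 2 UMIs in 89.5% of the cells of experiment 1 and 85.6% of experiment 2. Lyz2, which encodes the lysozyme of monocytes and granulocytes, did so in 69.2% and 80.9%. Cybb, the catalytic subunit of the phagocyte NADPH oxidase, did so in 65.6% and 65.1%. The cells were thus picked mostly by Ms4a6c with Csf1r, and most often together with Lyz2 (100 cells of experiment 1 and 271 of experiment 2 had these 3 alone) or with Cybb (85 and 144 cells). All 5 genes reached 2 UMIs in 10 and 27 cells.

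Free RNA and stray molecules can give a UMI in any droplet, so the same genes were counted in cells that met a T-lineage marker rule, at least 2 UMIs of at least 3 of Tcf7, Gata3, Bcl11b, Cd3g, Cd3d, Cd3e, Il2ra and Thy1. Those cells had median depths of 26159 and 25974 UMIs. A UMI of Csf1r was found in 97.7% and 95.4% of Ms4a6c-Csf1r cells and in 3.44% and 5.43% of T-lineage cells. For Cybb the shares were 74.8% and 75% against 1.10% and 3.01%. For Lyz2 they were 84.3% and 89.5% against 7.10% and 14.9%. Ms4a6c had the highest share in T-lineage cells, 23.3% and 22.3%. Ly6c2 was at 16.1% and 19.2% against 2.58% and 4.79%, the narrowest gap of the 5 in both experiments. The T-lineage cells counted here were those outside the main rule. That rule read all 5 genes, so these gaps were set in large part by the choice of cells. The part of free RNA in the Ms4a6c-Csf1r cells was not tested.

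The boundary of the rule ran through a continuous range of marker counts. Exactly 3 markers, the minimum, were reached by 222 of the 305 cells and by 542 of the 832. Just outside, exactly 2 markers were reached by 493 and 947 cells. Irf8, which the rule did not read, had 170.3 CPM, counts per 1000000 UMIs, in the cells with exactly 3 markers and 129 CPM in those with exactly 2 in experiment 1, and 201 and 177 CPM in experiment 2. In the cells with at most 1 marker it had 24.1 and 48.9 CPM. A further 97 and 442 cells met the marker side of the rule but carried 5 or more UMIs of Elane, S100a8 or Ngp. Those left out for a granulocyte gene had 267 and 342 CPM of Ly6c2 and 3802 and 28393 CPM of S100a9, a calcium-binding protein gene of neutrophils. Cells with exactly 3 markers had 4.40 and 4.54 CPM of Ly6c2 and 0.880 and 12.4 CPM of S100a9. The sets are unlike, since those left out could have more than 3 markers and were picked by a granulocyte gene. Both differences are thus set in part by the choice of cells.

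The share of Ms4a6c-Csf1r cells differed between hashtags of the same experiment. In experiment 1 it was lowest for hashtag 3 (9 of 1142 single cells, 0.788%, 0.361% to 1.49%) and highest for hashtag 2 (73 of 1164, 6.27%, 4.95% to 7.82%), with a median of 2.61% over the 8. The other hashtags of experiment 1 had 3.33% (hashtag 1), 0.946% (hashtag 4), 1.60% (hashtag 5), 3.11% (hashtag 6), 2.12% (hashtag 7) and 5.94% (hashtag 8). Before the thinning described below, hashtags 2 and 8 stood highest, and the intervals of hashtags 3 and 4 ended below those of hashtags 1, 2, 6 and 8.

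In experiment 2 the range was wider. It ran from 6 of 1016 cells for hashtag 7 (0.591%, 0.217% to 1.28%) to 187 of 976 for hashtag 6 (19.2%, 16.7% to 21.8%), with a median of 6.57%. Hashtags 1, 2, 3, 4, 5 and 8 had 10.9%, 1.20%, 6.59%, 1.88%, 12.5% and 6.56%. Hashtag 6 stood above all others before thinning, hashtags 5 and 1 did not differ beyond their intervals, nor did 3 and 8, and hashtags 7, 2 and 4 were lowest. Since hashtag depths differed, every cell was also thinned to 20000 UMIs, a setting chosen after the data had been seen, which left out 2698 and 3088 shallower cells. The share over all cells was then 2.13% and 4.73%, where the same cells unthinned gave 4.22% and 10.0%. Shares then ran from 0.376% (hashtag 3) to 4.67% (hashtag 8) in experiment 1 and from 0.683% (hashtag 7) to 10.8% (hashtag 6) in experiment 2. In experiment 1 the thinned interval of hashtag 1 (1.49%, 0.854% to 2.41%) overlapped those of hashtags 3 and 4. In experiment 2 the thinned interval of hashtag 6 (8.55% to 13.3%) overlapped that of hashtag 5 (6.75%, 4.95% to 8.95%). The thinned share of hashtag 4 of experiment 2 was 3.37% (1.90% to 5.50%), of the same size as the 3.04% of hashtag 3 (2.00% to 4.43%), although the same cells unthinned gave 3.6% and 7.73%. The order of these hashtags changed with thinning and is not read further. Their other cells had median depths of 18559 UMIs (hashtag 4) and 28831 UMIs (hashtag 3).

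**Figure D1:**
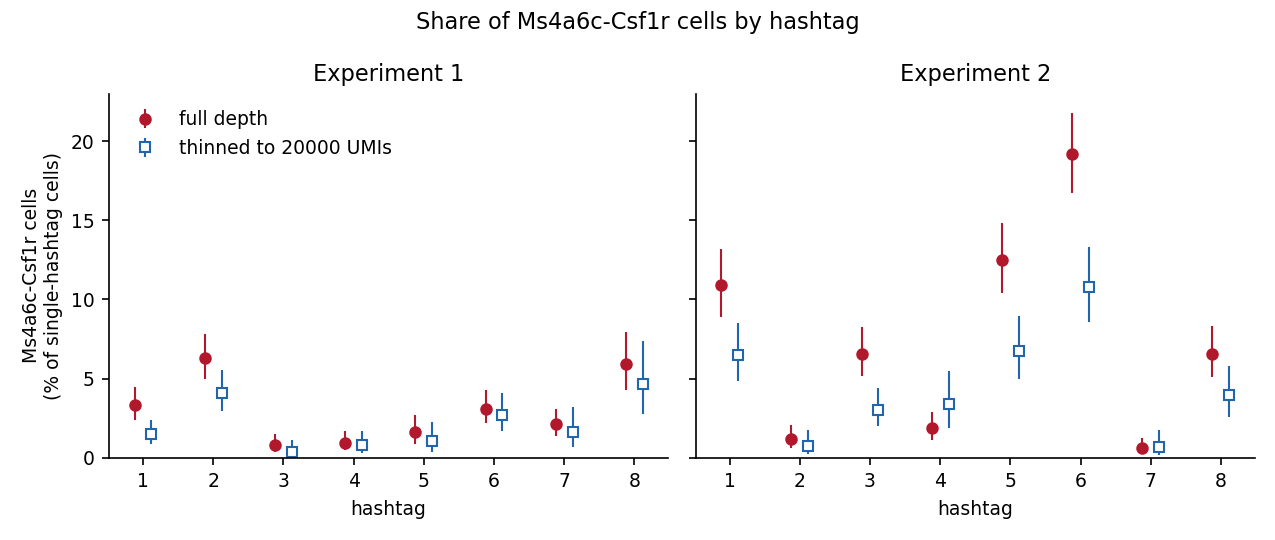
Share of single cells that met the Ms4a6c-Csf1r rule (y axis, percent of the hashtag's single cells) for each of the 8 hashtags (x axis), with experiment 1 and experiment 2 in separate panels, before and after thinning every cell to 20000 UMIs. Bars on the points are exact 95% intervals for counting error, and the highest share was 6.27% in experiment 1 (hashtag 2) and 19.2% in experiment 2 (hashtag 6).

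Gene levels were compared between the summed UMIs of the Ms4a6c-Csf1r cells and those of all other kept cells of the same experiment, 11446709 against 233082922 UMIs in experiment 1 and 32760881 against 262865056 in experiment 2. A gene is called higher or lower here when its CPM differed at least 2-fold. With 1 library per experiment there is no replicate of the comparison and no p-value, so the ratios compare these libraries only. Of 10891 genes with enough UMIs in experiment 1, 386 (3.54%) were higher and 552 (5.07%) were lower. Of 12875 in experiment 2, 467 (3.63%) were higher and 581 (4.51%) were lower. In single cells of experiment 2, 514 were higher and 945 lower, and by the median of the ratios within hashtags 456 were higher and 2080 lower. The median log2 ratio over all those genes was −0.04 and −0.03. Among the 10880 genes compared in both experiments, 247 were higher in both and 296 lower in both. Beside each ratio, levels within hashtags are given over the 7 hashtags of each experiment that had at least 10 Ms4a6c-Csf1r cells, which leaves out hashtag 3 of experiment 1 and hashtag 7 of experiment 2.

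The receptors through which monocytes sense growth factors and microbes were higher for most listed genes. Of 17 listed receptor genes, 10 of the 15 with enough UMIs were higher in experiment 1 and 12 of 17 in experiment 2, none was lower, and the median log2 ratios were 1.85 and 1.76. Csf1r itself, a gene of the rule, ranged over hashtags from 74.4 CPM (median 95.6, highest 108) in the Ms4a6c-Csf1r cells of experiment 1 and from 2.06 (median 10.9, highest 18.5) in the others. In experiment 2 it ranged from 71.9 (median 102, highest 111) against 3.68 to 32.3 (median 15.5). The rule read this gene, so its level in the chosen cells is set in part by that choice.

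Csf2rb encodes the signalling chain shared by the GM-CSF, IL-3 and IL-5 receptors. It had 56.4 to 146 CPM (median 92.9) over the hashtags of experiment 1 and 5.47 to 33.7 (median 16.5) in the other cells, and 48.0 to 135 (median 89.7) against 9.5 to 34.5 (median 17.1) in experiment 2. The ranges did not overlap in either experiment. Its summed ratio was 4.82 (4.47 to 5.18) and 4.28 (4.07 to 4.5). Ly86, which encodes MD-1, a partner of a Toll-like receptor homologue, was 3.70-fold (3.45 to 3.97) and 4.16-fold (3.97 to 4.34) higher. Fcgr1, the high-affinity IgG receptor, was at 7.08 against 0.682 CPM and at 12.9 against 1.37 CPM, ratios of 10.4 (7.84 to 13.6) and 9.41 (8.15 to 10.9). Its level was low in both experiments but above that of the other cells in all 7 hashtags of each. In experiment 1 the values of hashtags 4, 5 and 7 rest on only 1, 2 and 2 UMIs.

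Tyrobp, the adaptor that relays signals of many activating myeloid receptors, was abundant in both sets of cells. It was at 975 against 487 CPM in experiment 1 and at 1198 against 577 CPM in experiment 2. Ccr2, the chemokine receptor that lets classical monocytes leave the marrow, was 1.55-fold (1.47 to 1.64) and 1.97-fold (1.89 to 2.06) higher, under the 2-fold limit. Adgre1, which encodes the F4/80 antigen, was at 3.67 against 3.05 CPM in experiment 1 (ratio 1.20, 0.859 to 1.64) and at 12.1 against 3.39 CPM in experiment 2 (ratio 3.58, 3.17 to 4.03). Cd14, the lipopolysaccharide co-receptor, was at 2.88 against 0.275 CPM and at 5.92 against 1.14 CPM. Fcer1g, the Fc receptor gamma chain, was 1.76-fold lower (1.69 to 1.84) in experiment 1 and 1.08-fold higher (1.06 to 1.10) in experiment 2. Adgre1, Cd14 and Fcgr1 were thus low in level in both sets of cells.

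**Figure D2:**
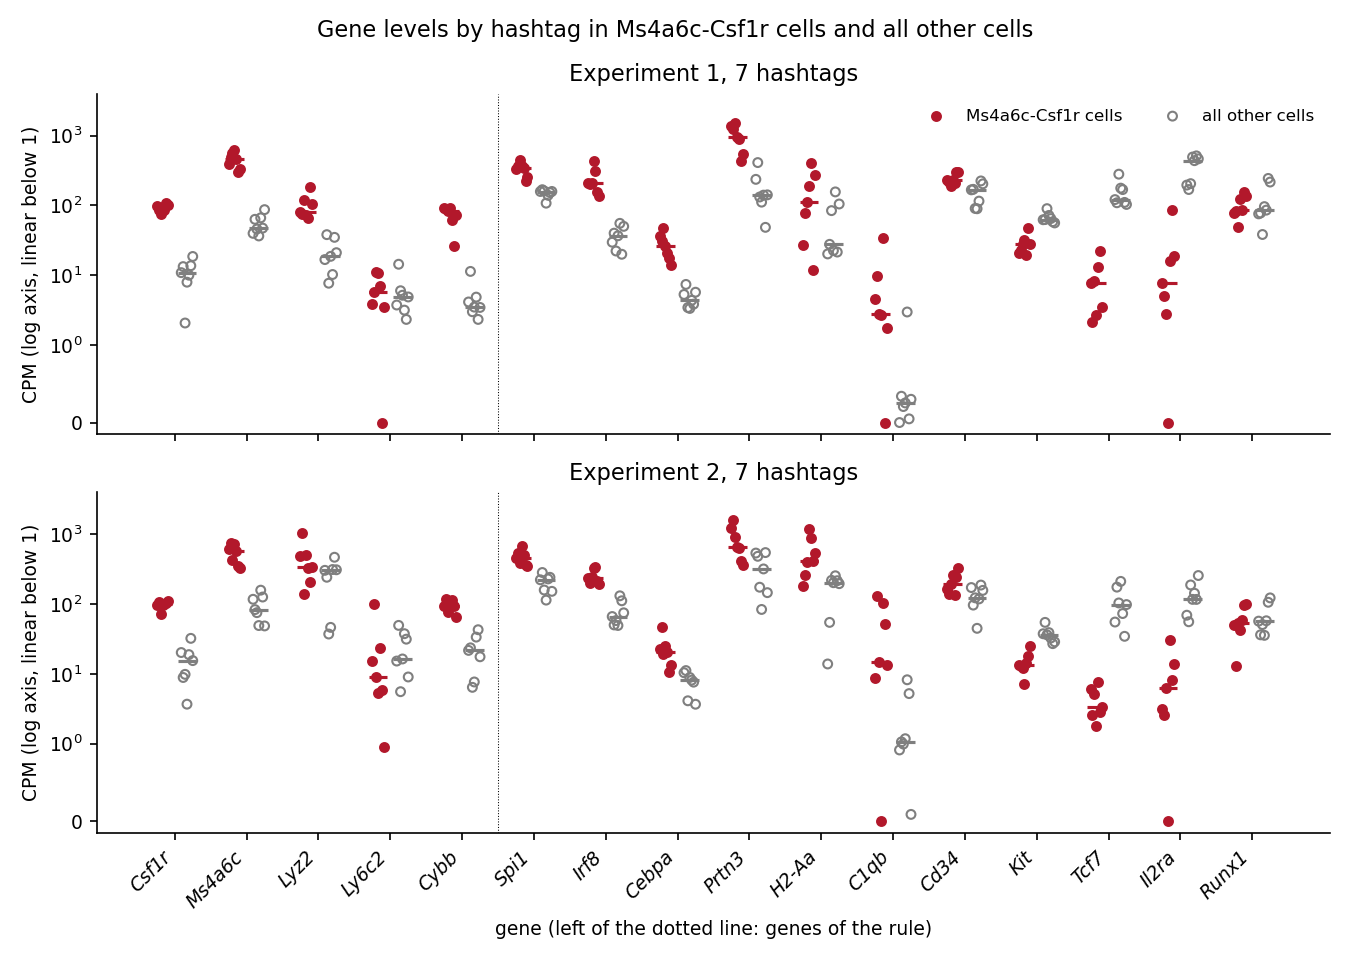
Levels of selected genes (y axis, CPM, log scale) in Ms4a6c-Csf1r cells and in other cells, each point being the single cells of 1 hashtag with at least 10 Ms4a6c-Csf1r cells and each short line the median over 7 hashtags, with the experiments in separate panels. The axis is linear below 1 CPM, and Csf1r lay between 71.9 and 111 CPM in the Ms4a6c-Csf1r cells shown and between 2.06 and 32.3 CPM in the other cells.

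Genes of the MS4A membrane proteins related to Ms4a6c were read together. Ms4a6c, a gene of the rule, had 296 to 611 CPM (median 467) over hashtags in experiment 1 and 329 to 759.9 CPM (median 575) in experiment 2, against 36.4 to 86.8 and 48.6 to 158 CPM in the other cells. Ms4a6d and Ms4a6b, near relatives that the rule did not read, were 11.2-fold (9.24 to 13.5) and 2.22-fold (2.09 to 2.36) higher in experiment 1, and 7.00-fold (6.37 to 7.69) and 2.33-fold (2.26 to 2.41) higher in experiment 2. Ms4a4c, of the same gene cluster, was at 71.9 against 7.93 CPM (9.06-fold, 8.34 to 9.84) and at 152 against 21.8 CPM (6.96-fold, 6.70 to 7.23). How the authors' counting split reads between these similar genes is not given in the sources used here, so their separate values are uncertain.

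Lysosomal and antigen-processing genes were higher in part. Of 11 compared, 5 were higher in experiment 1 and 7 in experiment 2, none was lower, and the median log2 ratios were 0.86 and 1.38. Ctss, cathepsin S, which trims the invariant chain in antigen-presenting cells, had 92.2 to 175 CPM (median 118) over hashtags in experiment 1 and 9.52 to 62.6 (median 27.6) in the other cells. In experiment 2 it had 184 to 337 (median 206) against 22 to 113 (median 49.7). The ranges were separate, with ratios of 4.33 (4.08 to 4.60) and 4.24 (4.12 to 4.36). Psap, the precursor of the saposins that help break down sphingolipids, was 3.76-fold (3.64 to 3.89) and 3.58-fold (3.53 to 3.64) higher. Mpeg1, which encodes the pore-forming perforin-2 of macrophages, was 7.24-fold (5.99 to 8.71) and 4.08-fold (3.76 to 4.42) higher at 13.5 and 27.5 CPM.

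The partners of Cybb in the NADPH oxidase did not follow it to the 2-fold limit. None of 5 listed genes was higher or lower in either experiment, with median log2 ratios of 0.41 and 0.64. Ncf4, the p40phox subunit, was at 76.2 against 38.7 CPM (1.97-fold, 1.84 to 2.11) and at 92.1 against 52.2 CPM (1.76-fold, 1.69 to 1.83). Cyba, which forms the membrane complex with Cybb, was 1.20-fold (1.17 to 1.24) and 1.46-fold (1.44 to 1.48) higher. The other cells also carried these transcripts, Cyba at 331 and 421 CPM.

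Secreted products were mixed. Of 9 compared in experiment 1, 5 were higher and 2 lower, and of 10 in experiment 2, 3 were higher and 1 was lower, with median log2 ratios of 1.09 and 0.42. Tgfbi, an extracellular matrix protein of monocytes, was at 76.5 against 8.23 CPM (9.30-fold, 8.57 to 10.1) and at 149.6 against 25.1 CPM (5.97-fold, 5.75 to 6.20). Il1b, the inflammatory cytokine interleukin-1 beta, was at 4.80 against 0.583 CPM in experiment 1 and at 70.5 against 9.31 CPM in experiment 2. Plac8, an abundant transcript of myeloid and lymphoid progenitors, was at 4032 against 2769 CPM and at 3527 against 2458 CPM, under the 2-fold limit. Chil3, a chitinase-like protein gene of inflammatory and Ly6C-positive monocytes and of neutrophils, had no UMI in the Ms4a6c-Csf1r cells of experiment 1 and stood at 2.90 against 150 CPM in experiment 2. That last difference turned round, to 1.54-fold higher, when the cells left out for a granulocyte gene were taken out of the comparison. Ly6c2 did the same, from 2.03-fold lower (1.83 to 2.27) to 6.52-fold higher in experiment 2. Unlike Chil3, Ly6c2 was read by the rule, and none of the remaining cells had met its marker side. The higher level of Ly6c2 is thus set in part by the choice of cells.

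Genes of non-classical monocytes and of resident macrophages were read next. Of the non-classical list, 3 of 6 compared genes were higher in experiment 1 and 5 of 7 in experiment 2. Treml4, a receptor of that subset, was at 1.49 against 0.116 CPM and at 3.85 against 0.628 CPM. Of 5 compared genes of the resident macrophage list, 3 were higher in experiment 1 (C1qb, C1qc and Mrc1) and Apoe was lower. In experiment 2 none was lower, and C1qa, C1qb, C1qc, Mrc1, Apoe and Mertk were among those higher. Apoe, a lipid carrier, was at 2.27 against 9.44 CPM (4.16-fold lower, 2.83 to 6.38) and then at 20.8 against 7.17 CPM (2.89-fold higher, 2.65 to 3.16). Resident macrophages also make the chains of the complement component C1q. C1qb was at 8.47 against 0.566 CPM (15-fold, 11.4 to 19.6) and at 47.9 against 2.67 CPM (17.9-fold, 16.4 to 19.6). Its hashtags spanned 0 to 34.2 CPM (median 2.76) in experiment 1. In experiment 2 they spanned 0 to 131 CPM (median 14.9). C1qb had no UMI in hashtag 7 of experiment 1 (25 cells) and hashtag 4 of experiment 2 (19 cells), and was found in the other 6 of each. C1qc was 9.97-fold (6.88 to 14.3) and 18.1-fold (15.9 to 20.7) higher, at 4.11 and 22.3 CPM. C1qa, the third chain of the complex, had no UMI in the Ms4a6c-Csf1r cells of experiment 1 and was at 13.2 CPM in those of experiment 2. Timd4, a marker of resident macrophages, had no UMI in either.

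Transcription factors of the myeloid lineages were higher in part. Of 9 compared in experiment 1, 5 were higher and 2 lower, and of 10 in experiment 2, 4 were higher and 2 lower, with median log2 ratios of 1.02 and 0.91. Irf8, which directs monocyte and dendritic fates, had 137 to 430.2 CPM (median 208) over hashtags in experiment 1 and 19.9 to 55.2 (median 36.6) in the other cells. In experiment 2 it had 192 to 340.0 (median 237) against 49.3 to 131 (median 66.3). The ranges were separate, with ratios of 5.83 (5.57 to 6.11) and 3.05 (2.97 to 3.13). Spi1, which encodes PU.1, had 220.4 to 446 CPM (median 345) against 107 to 168 (median 158), and 347 to 676 (median 462) against 114 to 283 (median 223). The other cells thus held Spi1 too, and the summed ratio was 2.03 (1.96 to 2.10) and 2.07 (2.03 to 2.11).

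Cebpa, which opens the granulocyte and monocyte programme, was 5.32-fold (4.66 to 6.06) higher at 25.4 CPM in experiment 1 and 2.09-fold (1.89 to 2.30) higher at 15.8 CPM in experiment 2. Irf5, a factor of inflammatory macrophages, was 2.17-fold (1.88 to 2.50) and 3.44-fold (3.24 to 3.66) higher. Zeb2, a repressor that myeloid cells express, was 2.95-fold (2.77 to 3.14) and 1.97-fold (1.89 to 2.05) higher. Klf4, a factor of Ly6C-positive monocytes, was at 7.95 against 9.11 CPM and at 18.1 against 16.0 CPM, within 1.5-fold in both. Gfi1, which favours granulocytes over monocytes, was 2.21-fold (1.75 to 2.82) and 2.30-fold (1.97 to 2.71) lower.

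The perturbed genes are read with a limit, since the counts do not separate a vector's or transgene's transcript from that of the mouse gene. Runx1 was at 96.7 against 96.1 CPM in experiment 1 (ratio 1.01, 0.946 to 1.07) and at 74.9 against 71.3 CPM in experiment 2 (ratio 1.05, 1.01 to 1.10). Over hashtags it ran from 49.6 to 155 CPM (median 86.8) in the Ms4a6c-Csf1r cells and from 38.2 to 243 (median 85.4) in the others of experiment 1. In experiment 2 it ran from 12.8 to 101 (median 52.9) against 35.6 to 123 (median 57.0). The ranges overlapped widely, and the direction differed between hashtags. In experiment 1 Runx1 was lower in the Ms4a6c-Csf1r cells of hashtags 7 (155 against 243 CPM) and 8 (135 against 216 CPM). It was higher in hashtags 1, 2, 4, 5 and 6. In experiment 2 it was lower in hashtags 1, 2, 6 and 8 and higher in hashtags 3, 4 and 5. Runx2, a Runx gene that was not a target, was 1.81-fold (1.65 to 1.99) and 1.79-fold (1.68 to 1.90) higher. Runx3 was 1.26-fold lower (1.19 to 1.33) in experiment 1 and 1.15-fold higher (1.12 to 1.19) in experiment 2. Bcl2 was 1.47-fold (1.37 to 1.57) and 2.01-fold (1.91 to 2.11) lower. Over hashtags of experiment 2 it ran from 34.5 to 76.7 CPM (median 59.5) against 48.3 to 176 (median 91.6). These ranges overlapped, and the medians differed by less than the 2-fold limit that the sums passed.

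Outside the lists, several genes stood among those with the highest ratios at 50 CPM or more. Pld4, a nuclease of endosomes in myeloid and plasmacytoid cells, was 6.56-fold (6.00 to 7.16) and 3.63-fold (3.47 to 3.79) higher. Ctsz, cathepsin Z, was at 438 against 123 CPM and at 461 against 171 CPM. Cd300a, an inhibitory receptor, was 3.02-fold (2.83 to 3.23) and 3.14-fold (3.01 to 3.27) higher. Serpinf1, a secreted serpin also called PEDF, was 3.87-fold (3.57 to 4.19) higher in experiment 1 and 1.61-fold (1.54 to 1.69) in experiment 2, the latter under the 2-fold limit. For Pld4 and Ctsz the ranges over hashtags did not overlap between the chosen and the other cells in either experiment, and for Cd300a they did.

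**Figure D3:**
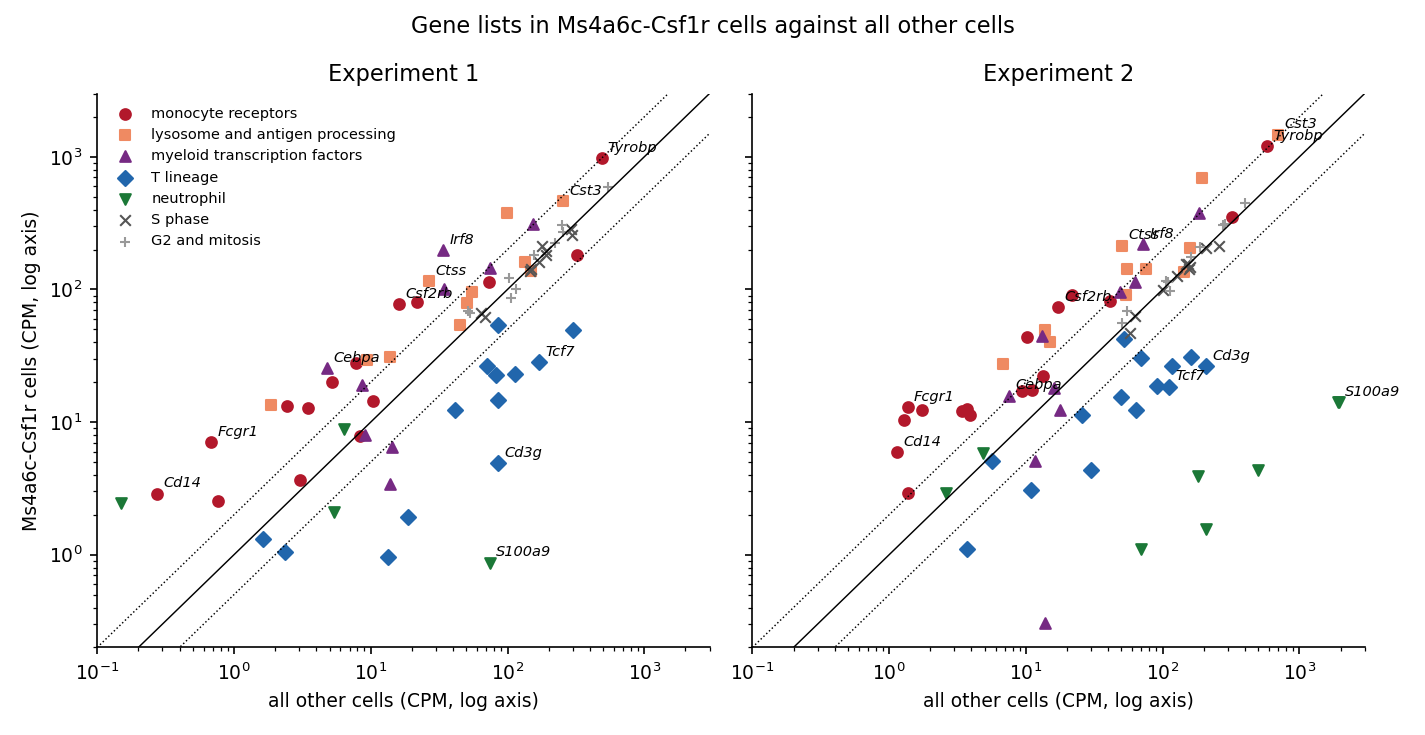
Level of each listed gene in Ms4a6c-Csf1r cells (y axis, CPM, log scale) against its level in other cells (x axis, CPM, log scale), by list (7 of the lists), with the experiments in separate panels, a solid line at equal levels and dotted lines at 2-fold different ones. Genes under the lower ends of the axes are not drawn. Genes of the receptor and transcription factor lists lay on or above the line of equality for the most part, with Irf8 at 198 against 33.9 CPM in experiment 1, and T-lineage genes such as Tcf7 lay below it.

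The T-lineage programme was low. Of 13 T-lineage genes compared in experiment 1, 11 were lower, and of 14 in experiment 2, 12 were lower, none being higher, with median log2 ratios of −2.30 and −1.98. Tcf7, the TCF-1 factor that starts the T programme downstream of Notch, was at 28.5 against 171 CPM and at 18.5 against 111 CPM, 5.99-fold (5.37 to 6.70) and 5.97-fold (5.51 to 6.48) lower. Over the single cells of each hashtag it had 2.15 to 21.9 CPM (median 7.79) and 1.78 to 7.59 CPM (median 3.36), against 103 to 279.6 and 34.5 to 211 CPM in the other cells. Il2ra, the CD25 antigen that marks the second pro-T stage, was 6.08-fold (5.60 to 6.62) and 5.18-fold (4.86 to 5.51) lower. Bcl11b, the commitment factor, was at 1.92 against 18.7 CPM and at 4.33 against 30.1 CPM.

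A part of these T-lineage UMIs was found in cells with more than 1 hashtag. The summed level of the list was 241.6 CPM in all Ms4a6c-Csf1r cells and 155 CPM in the single ones of experiment 1, against 1071 and 1064 CPM in other cells. In experiment 2 it was 246.6 and 133 CPM, against 999.6 and 1016 CPM. With single cells, the ratio of Tcf7 was 0.0467 and 0.0410. The T-lineage marker rule was met by 7.21% of Ms4a6c-Csf1r cells in both experiments, and by 1.20% and 1.06% of the single ones. Of all other cells, 44.2% and 40.1% met it.

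Gzma, the granzyme A gene that was abundant in the other cells, was at 181 against 1284 CPM and at 141 against 1205 CPM. Its levels over the single cells of hashtags had medians of 10.6 and 11.3 CPM, against 805 and 1158 CPM. Constant genes of the T-cell receptors were low as well. Trbc1 was 5.12-fold (4.79 to 5.49) and 4.85-fold (4.67 to 5.03) lower and Tcrg-C1 6.56-fold (5.94 to 7.27) and 7.13-fold (6.67 to 7.63) lower, with the limit that each has a near-identical copy. Of the innate lymphoid and NK list, 5 of 6 and 5 of 9 compared genes were lower. All 2 and all 4 compared mast or basophil genes were lower.

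**Figure D4:**
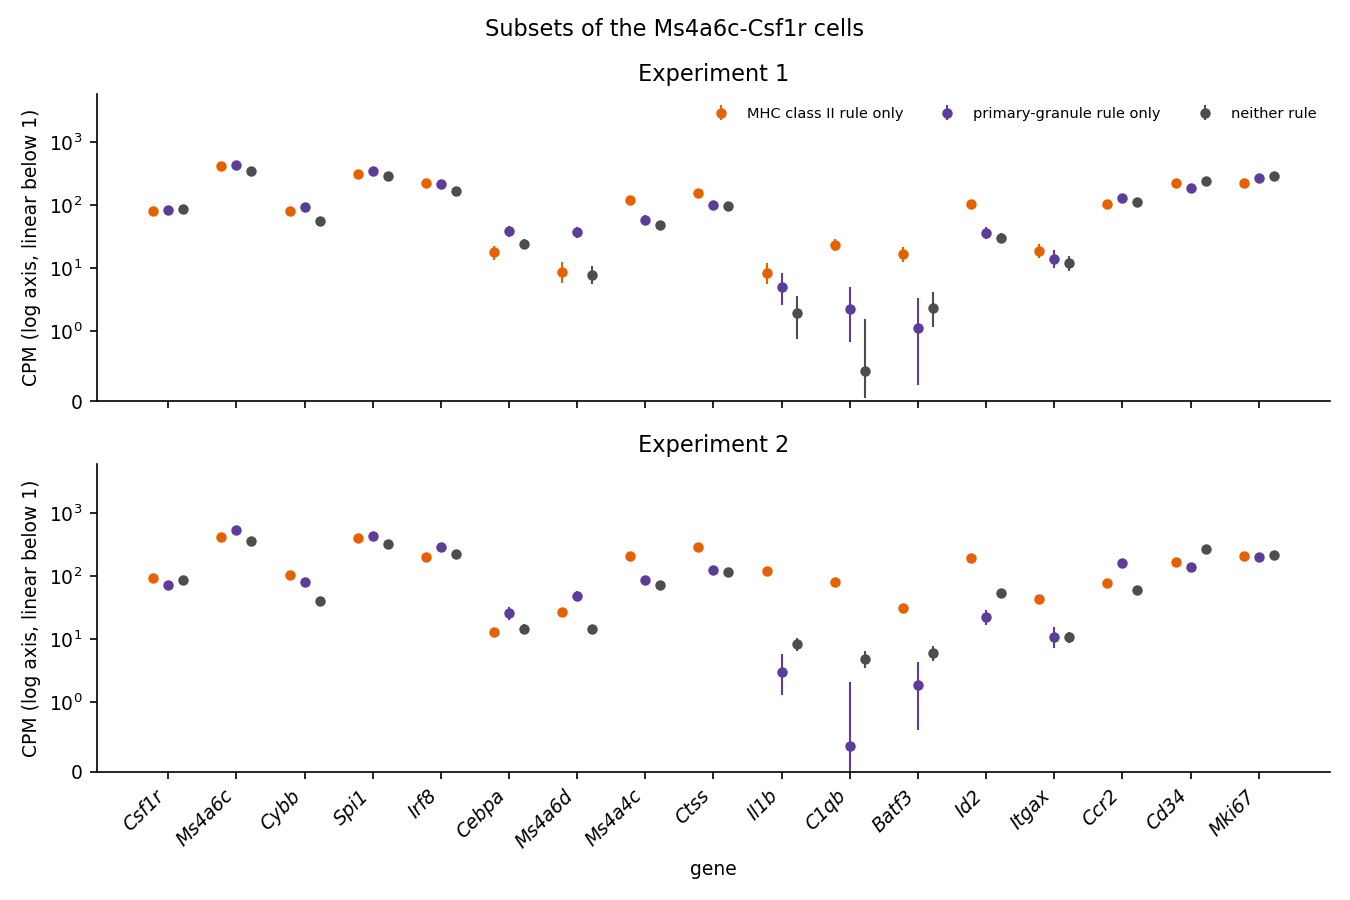
Levels of selected genes (y axis, CPM, log scale) in Ms4a6c-Csf1r cells that met the MHC class II rule only, the primary-granule rule only, or neither, for each experiment, with exact 95% Poisson intervals and an axis that is linear below 1 CPM. C1qb was at 80.9 CPM in the MHC class II cells of experiment 2 and at 0.367 and 4.74 CPM in the primary-granule cells and in those that met neither rule.

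Progenitor genes divided. Lmo2 and Mef2c, factors of early progenitors, were 3.23-fold (3.07 to 3.40) and 2.10-fold (2.01 to 2.20) higher in experiment 1 and 2.20-fold (2.13 to 2.28) and 2.00-fold (1.95 to 2.06) higher in experiment 2. Flt3, the receptor of the ligand in the medium, was at 7.25 against 3.44 CPM and at 9.13 against 4.45 CPM. Cd34, a surface antigen of progenitors, had 187 to 299 CPM (median 229) over hashtags against 89.4 to 224 (median 167) in experiment 1, and 136 to 333 (median 196) against 44.9 to 187 (median 123) in experiment 2. Its ratio was 1.59 (1.52 to 1.65) and 1.67 (1.63 to 1.72). Kit, the stem cell factor receptor by which the sort's stage is defined in the labels, was at 32.1 against 70.3 CPM and at 19.0 against 36.4 CPM, 2.19-fold (1.97 to 2.43) and 1.91-fold (1.76 to 2.07) lower. Myb was 2.44-fold (2.31 to 2.57) and 2.25-fold (2.16 to 2.34) lower. For Kit and Myb the ranges over hashtags did not overlap in either experiment.

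Genes of DNA replication and mitosis were at the level of the other cells. None of 10 S-phase and none of 10 G2 and mitosis genes was called in either experiment, with median log2 ratios of −0.05 and −0.04 for S phase and 0.16 and 0.14 for mitosis. Mki67, the Ki-67 proliferation antigen, was at 269 against 254 CPM and at 210.4 against 186 CPM. Of the 8 interferon response genes, 1 was higher in each experiment, Ifit3 in experiment 1 and Ifi27l2a in experiment 2.

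Markers of other classes were then counted in the Ms4a6c-Csf1r cells, with the same rule of at least 2 UMIs of at least 3 listed genes. The MHC class II genes H2-Aa, H2-Ab1, H2-Eb1 and Cd74, which present peptides to CD4 T cells, were met by 36.7% of the cells of experiment 1 and 61.9% of experiment 2, against 19.1% and 26.9% of other cells. The primary-granule genes Mpo, Prtn3, Ctsg and Ms4a3, which mark granulocyte and monocyte progenitors, were met by 26.2% and 12.3%, against 2.87% and 5.71%. At 20000 UMIs per cell the MHC class II shares were 31.8% and 52.1% against 16.9% and 24.7%, and the granule shares 20.7% and 9.5% against 2.94% and 5.43%. The neutrophil rule was met by none in either experiment, against 0.0554% and 2.57% of other cells. The guard genes of the main rule bear on that count and on the granule shares. Cells left out for Elane, S100a8 or Ngp were counted among the other cells. The plasmacytoid rule was met by 0 and 0.361%, against 0.0111% and 0.0853% of other cells. The mast or basophil rule was met by 0 and 0.120%, against 0.499% and 0.991%. For the B-lineage rule the shares were 0 and 0.721%, against 0.0775% and 1.82%. In experiment 2 these shares rest on 3, 1 and 6 Ms4a6c-Csf1r cells.

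The shares of MHC class II cells ranged more widely between hashtags than between experiments. In experiment 1 they were 88.6% for hashtag 6 (31 of 35 cells) and 65.9% for hashtag 8 (27 of 41), and 22.2% or lower for the other 6 hashtags. In experiment 2 they were 100% for hashtag 4 (19 of 19), 97.1% for hashtag 3 (68 of 70) and 81.6% for hashtag 5 (93 of 114), and 27.4% for hashtag 1 (26 of 95). In many of these hashtags the other cells had higher shares too. They had 39.4% and 28.4% for hashtags 6 and 8 of experiment 1 and 56.6%, 35.1% and 43.2% for hashtags 3, 4 and 5 of experiment 2, against 3.22% for hashtag 1. This did not hold throughout. In experiment 2 hashtag 2 had 58.3% in its 12 Ms4a6c-Csf1r cells and 17.1% in the others, hashtag 7 had 50% in 6 cells and 5.64%, hashtag 6 had 56.1% and 29.7%, and hashtag 8 had 29.7% and 9.77%. T-lineage cells, which are not known for MHC class II in the mouse, met the rule at 15.3% and 17.8% over the whole experiments, and the granule rule at 0.803% and 1.84%. The part of free RNA in these shares was not tested. In experiment 1 hashtags 3 and 4 went the other way, with 22.2% and 18.2% of their 9 and 11 Ms4a6c-Csf1r cells and 26.8% and 26.3% of their other cells.

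**Figure D5:**
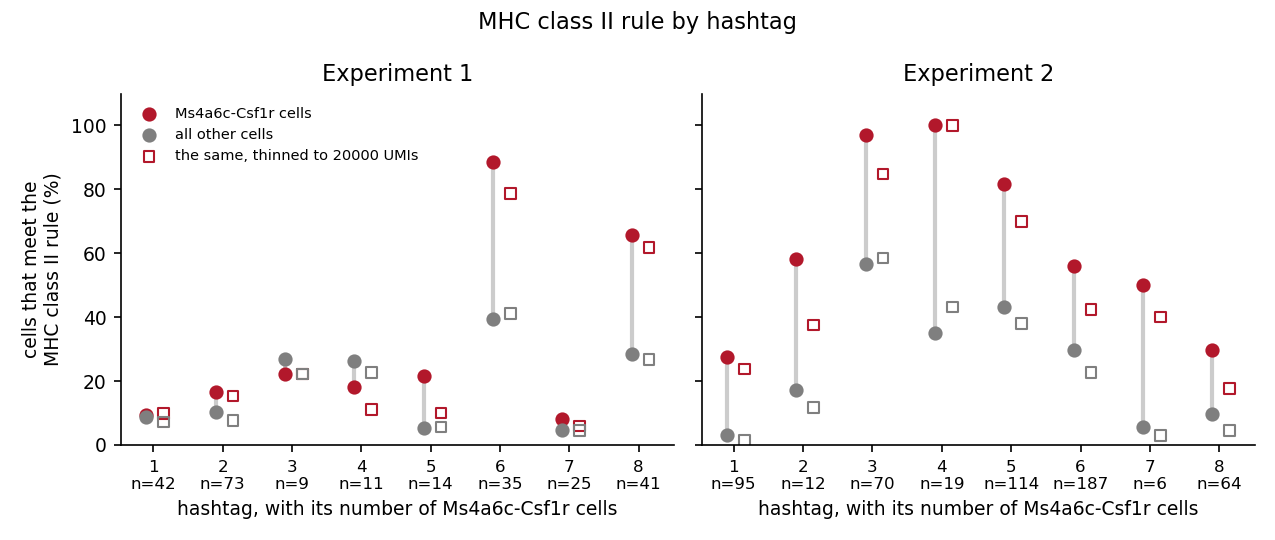
Share of cells that met the MHC class II rule (y axis, percent) for each hashtag (x axis), in Ms4a6c-Csf1r cells and in other single cells (filled dots joined by a grey line), with the experiments in separate panels. Open squares give the same shares after thinning every cell to 20000 UMIs, and n is the number of Ms4a6c-Csf1r cells. Hashtag 4 of experiment 2 had 100% in Ms4a6c-Csf1r cells and 35.1% in other cells, and hashtag 7 of experiment 1 had 8.00% and 4.75%.

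Cd74, the invariant chain, followed the same hashtags in level only in part. It was highest in hashtags 6 and 8 of experiment 1 (1025 and 849 CPM) and in hashtags 4 and 5 of experiment 2 (3876 and 2949 CPM). Hashtag 3 of experiment 2, at 1519 CPM, lay below hashtags 6 and 8 (1562 and 1584 CPM). Cd74 had 94.9 to 1025 CPM (median 377) over hashtags in experiment 1 and 637 to 3876 CPM (median 1562) in experiment 2, against 53.3 to 362 and 52.2 to 796 CPM in the other cells. H2-Aa was 2.21-fold (2.10 to 2.33) and 2.92-fold (2.87 to 2.98) higher. Of the dendritic list, 4 of 7 compared genes were higher in experiment 1 and 7 of 10 in experiment 2. Itgax, the CD11c antigen of dendritic cells, was 1.91-fold (1.62 to 2.23) and 3.28-fold (3.03 to 3.53) higher. Batf3, a factor of conventional dendritic cells, was at 6.38 against 2.65 CPM and at 19.6 against 9.70 CPM. Zbtb46, which marks that lineage, had 2.46 CPM in the MHC class II cells of experiment 2.

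Of the primary-granule genes, Prtn3, the serine protease proteinase 3, had the highest ratio. It was at 974 against 189 CPM (5.16-fold, 5.06 to 5.27) and at 624 against 303 CPM (2.06-fold, 2.03 to 2.09). Over hashtags it had 431 to 1507 CPM (median 951) against 48.4 to 409.9 in experiment 1, with no overlap, and 362 to 1594 (median 649) against 83.7 to 546 in experiment 2, with overlap. Mpo, myeloperoxidase, was 1.75-fold (1.57 to 1.96) and 4.46-fold (4.15 to 4.81) lower. Ctsg, cathepsin G, was 1.61-fold (1.54 to 1.68) higher in experiment 1 and 1.20-fold (1.17 to 1.24) lower in experiment 2. Without the cells left out for a granulocyte gene, Prtn3 was 9.40-fold and 5.52-fold, Mpo 2.32-fold and 1.29-fold, and Ctsg 2.25-fold and 1.49-fold higher than in the remaining cells, so the direction for Mpo in both experiments and for Ctsg in experiment 2 rested on those cells.

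By these 2 rules the Ms4a6c-Csf1r cells divided into 97 and 475 that met the MHC class II rule only, 65 and 62 that met the granule rule only, 15 and 40 that met both, and 128 and 255 that met neither. The rules chose the groups, so the levels of other genes in them are a description. More than 1 hashtag was called in 21.6% and 32.6% of the MHC class II group, 12.3% and 22.6% of the granule group, 53.3% and 45% of those that met both, and 14.1% and 20.4% of those that met neither. The cells that met both thus had the highest share of doublets.

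The MHC class II group held most of the UMIs of several genes in experiment 2. Il1b was at 119 CPM (114 to 124) there, at 2.94 (1.27 to 5.78) in the granule group and at 8.25 (6.54 to 10.3) in the group that met neither rule. C1qb was at 80.9 CPM (76.8 to 85.1), 0.367 (0.00929 to 2.04) and 4.74 (3.47 to 6.33). In experiment 1 C1qb was at 23.6 CPM (18.7 to 29.4), 2.30 (0.843 to 5.00) and 0.430 (0.0520 to 1.55). Id2, an inhibitor of E proteins that dendritic and innate lymphoid cells need, was at 106 CPM (95.3 to 118), 36.8 (29.8 to 44.9) and 30.5 (25.7 to 36.0) in experiment 1 and at 191 (185 to 197), 22 (16.8 to 28.3) and 54.3 (49.8 to 59.2) in experiment 2. C1qb and Id2 were thus highest in the MHC class II group of the 3 in both experiments. Il1b in experiment 1 was at 8.37 CPM (5.56 to 12.1), 4.98 (2.65 to 8.51) and 1.93 (0.884 to 3.67), with overlapping intervals for the first 2. The groups pool hashtags with different MHC class II shares, and in experiment 1 hashtag 6, with 88.6% such cells, held 39 C1qb UMIs (34.2 CPM, against 9.68 or less elsewhere). Genes of other classes differed as well. In experiment 2 Col1a2 was at 294 CPM (286 to 302) in the MHC class II group and 32.7 (26.2 to 40.2) in the granule group. Cd3g was at 30.1 CPM (27.7 to 32.8) and 7.34 (4.48 to 11.3). The parts of the hashtags, of stromal or T-lineage RNA and of doublets in these group differences were not tested.

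The granule group was higher in another set of genes. Cebpa was at 39.1 CPM (31.9 to 47.4) there against 17.9 (13.7 to 23.1) in the MHC class II group of experiment 1, and at 25.7 (20.0 to 32.4) against 12.9 (11.3 to 14.7) in experiment 2. Ms4a6d was at 37.5 CPM (30.5 to 45.7) against 8.67 (5.80 to 12.4), and at 48.1 (40.2 to 57.0) against 26.8 (24.5 to 29.3). Ccr2 was at 132 CPM (118 to 146) against 105 (93.9 to 116), and at 160.0 (145 to 176) against 77.7 (73.7 to 81.9). Csf1r, which the rule read, was at 83.1 CPM in both groups of experiment 1 and at 70.8 and 93.1 CPM in experiment 2. Cd34 in the group that met neither rule was at 247 CPM (233 to 262) in experiment 1 and 268 (257 to 278) in experiment 2, against 187 and 136 CPM in the granule group. The MHC class II group was at 226 CPM (210.4 to 243), which overlaps, and at 164 CPM (159 to 170.4). Mki67 in experiment 1 was at 231 CPM (215 to 248) in the MHC class II group. It was at 290.5 CPM (275 to 306) in the group that met neither rule, with the granule group between. In experiment 2 Mki67 lay between 200.3 and 218 CPM over these groups.

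The Ms4a6c-Csf1r cells of both experiments were compared last. They came from libraries made separately and from different spans of culture, and library, harvest days and the mix of conditions cannot be told apart. Taking a 2-fold difference as the limit, experiment 2 had 419 of 10880 genes (3.85%) above and 149 (1.37%) below experiment 1, with a median log2 ratio of −0.12 over all of them. With single cells only, 228 were higher, and without the cells that also met the T-lineage or stromal rule 187 were. The rule's own genes Csf1r (ratio 1.04, 0.962 to 1.12), Ms4a6c (1.05, 1.02 to 1.09) and Cybb (1.05, 0.972 to 1.13) were at nearly the same level in both. The same limits on these genes chose the cells of both experiments, so their like levels are set in part by that choice. Lyz2 was 3.18-fold (2.98 to 3.39) higher in experiment 2, where it was also 10.9-fold higher in the other cells.

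Genes of antigen presentation were among those higher in experiment 2. Of 7 dendritic genes compared, 6 were higher and none lower, with a median log2 ratio of 1.66. Cd74 was at 1583 against 408 CPM (3.88-fold, 3.76 to 4.00) and H2-Aa at 454 against 137 CPM (3.32-fold, 3.15 to 3.50). Il1b was 14.7-fold (11.2 to 19.5) and C1qb 5.65-fold (4.60 to 7.01) higher. In the other cells the same comparison gave 3.18-fold for Cd74, 2.51-fold for H2-Aa, 15.9-fold for Il1b and 4.72-fold for C1qb. These genes were thus higher in experiment 2 in both sets of cells, by like factors.

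The genes with the highest ratios in experiment 2 were of another kind in part. Clec4n, the C-type lectin Dectin-2, was at 57.0 against 1.75 CPM (32.6-fold, 21.0 to 53.5), and 45.4-fold higher in the other cells. It was at 103, 66.0 and 139 CPM in hashtags 5, 6 and 8 of experiment 2 and at 8.30 to 38.5 CPM in hashtags 1 to 4. Bcl2a1b and Bcl2a1d, close copies of a Bcl2-family survival gene whose counts are uncertain apart, were 32.9-fold (23 to 48.9) and 19.8-fold (14.2 to 28.3) higher, and 23.8-fold and 21.7-fold in the other cells. Bcl2a1b was at 164, 131 and 129 CPM in hashtags 5, 6 and 8 and at 0 to 11.1 CPM in hashtags 1 to 4, and Bcl2a1d was split the same way, at 73.0 to 145 and 6.63 to 19.6 CPM. Hashtags 5, 6 and 8 of experiment 2 thus had the highest levels of all 3 genes. Sat1, an enzyme of polyamine breakdown, was 3.29-fold (3.07 to 3.53) higher, and 2.21-fold in the other cells. Collagen genes of the stromal line also stood among them, with Col1a2 at 178 against 4.28 CPM. The stromal rule was met by 6.13% of the Ms4a6c-Csf1r cells of experiment 2 and by 2.12% of the single ones, against 0.328% and 0 in experiment 1. Other cells met it at near shares, 5.53% in experiment 2 and 0.465% in experiment 1. Without the cells that met the T-lineage or stromal rule the ratio of Col1a2 was 8.27, and in the other cells it was 12.8. In 6 of the 6 stromal genes compared the level was higher in experiment 2, and Dcn had no UMI in the Ms4a6c-Csf1r cells of experiment 1. The part of stromal RNA in the other differences was not tested.

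Fewer genes were lower in experiment 2 in the full sums, 149 against 419, but that balance depended on the cells used. It was 164 lower against 228 higher in single cells, 172 against 187 without cells of the T-lineage or stromal rule, 179 against 174 in single cells without hashtag 2 of experiment 1, and 224 against 129 at 5000 UMIs per cell. F630028O10Rik, a noncoding transcript of myeloid cells, was 2.46-fold (2.20 to 2.76) lower and Myc, the growth factor-induced proto-oncogene, 2.06-fold (1.88 to 2.27) lower. In the other cells Myc had a ratio of 0.529, and F630028O10Rik had a ratio of 0.853. Cebpa was 1.60-fold (1.39 to 1.86) lower in the Ms4a6c-Csf1r cells of experiment 2 and had a ratio of 1.59 in the other cells, so the directions were opposite. That difference was not tested.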

How the data were processed

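UMI counts per gene and cell were deposited by the authors without normalization, in 4 samples, as 1 mRNA and 1 hashtag library for each of 2 experiments. The submitters' processing notes name Cell Ranger 3.0.0, mm10 and GRCm38, and the filter that chose the deposited barcodes is not given in the sources used here. The deposited hashtag counts cover 8 barcodes per experiment, as molecules or as reads, which the sources used here do not give. The 31053 genes carry symbols in the files (30934 IDs were in the name table, 71 symbols were shared and kept apart by ID). No column of unmapped samples was found (0).

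The members, the 25 gene lists and the comparisons were chosen with earlier results of these data known. Of 209 listed genes 208 were in the files, all but Ifi30. Barcodes under 500 genes, or at 10% mitochondrial UMIs and above, were left out, which removed 635 of 9967 and 342 of 10556 barcodes. Hashtags were called with HTODemux in Seurat 5.3.0 at a quantile of 0.99, and doublets were kept with values for single cells beside them. UMIs were summed over cells and divided by their total to give CPM. Genes with at least 10 UMIs in both sums were compared, and genes with none in 1 sum and at least 50 CPM in the other, for which that sum was set to 3 counts. Intervals are exact (Poisson for CPM, conditional for ratios, Clopper-Pearson for shares). The summed depth of the members was 11446709 UMIs in experiment 1 and 32760881 in experiment 2. No test over samples was possible with 1 library per experiment, and hashtags without a condition are not replicates. Genes were named from the lists, as the 15 highest (50 CPM or more) and 15 lowest (100 CPM or more in other cells) outside them, and as the 10 highest and lowest between experiments. Some results are not reported here. The ratio step was tested on simulated data. edgeR 4.0.16 and DESeq2 1.42.0 gave alternative scalings only.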

Additional observations from a re-analysis of the deposited data

Results flagged for a closer look

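Levels in the Ms4a6c-Csf1r cells were examined over the 7 hashtags of each experiment with at least 10 such cells. The 5 genes of the rule were left out. In 12 of 84 values examined, the shares of these cells over 8 hashtags included, 1 hashtag lay farther from the nearest other than the spread of the rest allows by Dixon's 95% limit. Chance gives about 1 in 20 such groups. The hashtags carry no condition, and many of these values rest on few UMIs or few cells.

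In experiment 1 hashtag 6 stood apart in 3 genes, with C1qb at 34.2 CPM (next 9.68), Cd3g at 14.9 (next 4.38) and Gzma at 213 (next 49.6), from 35 cells. Hashtag 8 had the lowest Mki67, 172 CPM (next 244), and the highest Col1a2, 1.76 CPM (next 0.649) from 2 UMIs. Ms4a4c was lowest for hashtag 1, at 27.3 CPM (next 86.1). Adgre1 was highest for hashtag 4, at 13.8 CPM (next 4.38) from 5 UMIs. Il2ra was highest for hashtag 7, at 84.7 CPM (next 18.5) from 58 UMIs in 25 cells.

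In experiment 2 hashtag 2, with only 12 cells, stood apart in 2 genes. It had the highest Cebpa, 46.2 CPM (next 25), and the lowest Runx3, 53.9 CPM (next 118). Hashtag 3 had the highest Cd3g, 11.1 CPM (next 2.88). Gzma was highest for hashtag 5, at 111 CPM (next 36.3).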

How the results depend on the processing

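No paired analysis was possible because the hashtags carry no condition and each experiment has 1 mRNA library. The share of Ms4a6c-Csf1r cells moved with the rule and with depth. In experiment 1 it was 4.17% under a limit of 1000 genes and 5% mitochondrial UMIs, 1.5% at 3 UMIs per marker, 0.889% at 4 markers, 2.72% at under 2 UMIs of each granulocyte gene, 2.91% in single cells, 0.0987% with cells thinned to 5000 UMIs and 2.13% at 20000. In experiment 2, in the same order from 3 UMIs on, it was 4.16%, 2.84%, 6.44%, 7.25%, 0.899% and 4.73%. The highest hashtag share at 20000 UMIs was 4.67% and 10.8%. Shares of Ms4a6c-Csf1r cells at 20000 UMIs were 31.8% and 52.1% for the MHC class II rule, 20.7% and 9.5% for the granule rule and 4.29% and 4.61% for the T-lineage rule. In single cells the T-lineage rule gave 1.20% and 1.06% and the stromal rule 0 and 2.12%.

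Counts of genes also moved. In experiment 1, 251 were higher and 203 lower at 5000 UMIs, 1085 and 1488 with a minimum of 1 UMI, and 974 lower by the median within hashtags. In experiment 2, 1157 were higher with a minimum of 1 UMI. Lower were 1477 at that minimum, 945 in single cells, 361 at 5000 UMIs, 963 without cells that met the T-lineage or stromal rule, 997 as a mean over cells and 2080 by the median within hashtags. Between experiments, 228 were higher in single cells, 187 without T-lineage or stromal cells, 129 at 5000 UMIs (224 lower) and 1443 at 1 UMI (719 lower). Leaving out each hashtag in turn, over single cells, gave 374 to 433 higher and 435 to 521 lower in experiment 1, 450.0 to 543 and 771 to 953 in experiment 2, and 174 to 271 and 145 to 179 between experiments.

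Of 6130 alternative values of 354 gene ratios, 5379 stayed within 1.5-fold, 743 moved by more, and 8 of ratios past the 2-fold limit turned round. Ratios under that limit that changed sides of 1 are not among the 8. Bcl2a1b in experiment 1 had a ratio of 0.336 at 5000 UMIs. The rule read Elane, Ly6c2 and Ngp, so their ratios in the next sentence are set in part by that choice. Without the cells left out for a granulocyte gene, the ratios were 14.7 for Elane and 1.01 for S100a9 in experiment 1, and 6.52 for Ly6c2, 1.29 for Mpo, 4.84 for Elane, 1.03 for Ngp and 1.54 for Chil3 in experiment 2. That setting, the 20000 UMI thinning, the single cells of other classes' rules and the removal of T-lineage or stromal cells were chosen after seeing the data. The cause of these changes was not tested.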
